A study of Mus musculus with 24 samples.

Results

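Calcineurin inhibition was examined here 1 day after it began, in embryoid bodies at day 4 of differentiation. The comparison sets 3 arrays from embryoid bodies treated with FK506 and cyclosporin A against 3 arrays from untreated embryoid bodies of the same day, which are 6 of the 24 arrays of the study. The arrays were chosen by their labels alone, and all 21789 probe sets that the platform annotation ties to 1 gene symbol were compared. The treated day 4 group was made from 46C mouse embryonic stem cells that received FK506 at 100 ng/ml together with cyclosporin A at 1 µg/ml from day 3, so that neither drug was tested alone. Its untreated counterpart came from the same line and day, and the labels name no solvent in it. 46C is a clonal embryonic stem cell line with a fluorescent reporter at the Sox1 locus, which marks neural progenitors. Cells of both groups were plated on gelatin with LIF, a cytokine that keeps embryonic stem cells undifferentiated, on day 1, and were moved to low attachment dishes, where they aggregate, on day 3, the day the drugs were added. Arrays of days 6, 8 and 12 were made the same way in 3 independent experiments, with the drugs present until day 8. The question the study names is how calcineurin signalling acts on neural induction and on the BMP pathway.

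Calcineurin is a phosphatase that calcium and calmodulin switch on, and its best known substrates are the NFAT transcription factors, which enter the nucleus once dephosphorylated. FK506 and cyclosporin A do not bind calcineurin by themselves: FK506 binds the immunophilin encoded by Fkbp1a, cyclosporin A binds the cyclophilin encoded by Ppia, and each drug and protein pair then blocks the phosphatase. Immunophilins are also prolyl isomerases that help proteins to fold, and several of them work in the endoplasmic reticulum (ER). Cells that accumulate unfolded proteins in the ER start the unfolded protein response, in which the sensors Ern1, Eif2ak3 and Atf6 raise the transcription of ER chaperones, of the machinery that removes misfolded proteins and of the secretory apparatus, largely through the factors encoded by Atf6, Xbp1 and Atf4.

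Values are given on the log2 scale of the RMA-processed arrays, and a difference is treated minus untreated, so that a positive one means more signal in the treated arrays. RMA is a background correction, normalization and summary of an array's probes into 1 value per probe set. The median standard error (SE) of a day 4 difference was 0.0921, which rests on the number of arrays and on the spread within groups. Treated replicate 1 stood apart from the other arrays of its day: its median value was 8.289, against 8.164 to 8.205 in the other 5, and its correlations with them were 0.9927 to 0.9947, where other pairs reached 0.9984. Its genes lay a median of 0.10 above the untreated mean, while the medians of the other 5 arrays lay between -0.01 and 0.01 of it. For that reason values without treated replicate 1, or without the arrays numbered 1 in both groups, are given below beside many of the results that they moved.

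The embryoid bodies of both groups carried the transcripts of pluripotent and epiblast cells at high levels on day 4. Pou5f1, the central pluripotency factor, read 12.70, 12.74 and 12.70 in the treated arrays, against 12.70, 12.71 and 12.83 in the untreated ones. Nanog, a second such factor, read 12.65, 12.61 and 12.63 in treated arrays and 12.60, 12.56 and 12.74 in untreated arrays. Fgf5, which marks the epiblast as it leaves the naive state, read 10.62, 10.42 and 10.51 in treated arrays and 10.58, 10.62 and 10.64 in untreated arrays. Markers of differentiated cells were at mixed levels. Some were near the low end of the arrays: the endoderm gene Afp read 6.28 to 6.72 in treated and 6.43 to 6.71 in untreated arrays, and the cardiac myosin gene Myh6 read 7.34 to 7.41 in treated and 7.38 to 7.69 in untreated arrays, where 40% of probe sets had a mean under 7.64. By their mean over the 24 arrays, 19 of 20 endoderm genes and 10 of 11 cardiac genes were above 7.64. That mean includes the later days, and Myh6 was among the 10, so these counts do not give levels at day 4. At day 4 the cardiac actin gene Actc1 read 8.56 to 9.02 in treated arrays and 8.81 to 9.31 in untreated arrays. The RNA is from whole embryoid bodies, so fewer cells of a type and less RNA per cell cannot be told apart in any result below.

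Sequence is shown first for the ER genes, because 3 of their lists had the largest median differences at day 4 and because many ER gene promoters are known for a shared element. ATF6 and XBP1 act through the ER stress element (ERSE), spelled CCAAT, 9 bases of any kind and CCACG, and through a shorter form, ERSE-II, spelled ATTGG, 1 base of any kind and CCACG. In RefSeq promoters of GRCm38.p6, the 250 bases before each start site were searched on both strands, and 35 of 27025 genes held ERSE, or 0.13%. Of the 69 genes with a promoter entry among 4 lists of ER genes described below, 10 held it, or 14.5%: Calr, Canx, Creld2, Derl3, Dnajc3, Ero1b, Hsp90b1, Hspa5, Pdia6 and Syvn1. Among the 21 such chaperone and folding genes the share was 8 of 21 (38.1%), and among the 25 genes of translocation and early transport it was 0. ERSE-II was in 10 genes in all (0.037%), of which Herpud1 is the ER gene. The stretches below are 5' to 3' on the strand of the gene, with the element in capitals; a stretch whose capitals begin with CGTGG holds it on the other strand.
Pdia6 (chr12:17266461-17266539, plus strand): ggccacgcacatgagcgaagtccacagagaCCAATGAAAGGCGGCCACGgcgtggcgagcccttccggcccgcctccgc
Hspa5 (chr2:34771995-34772073, plus strand): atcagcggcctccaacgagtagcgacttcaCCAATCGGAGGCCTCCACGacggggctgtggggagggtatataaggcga
Creld2 (chr15:88819490-88819568, plus strand): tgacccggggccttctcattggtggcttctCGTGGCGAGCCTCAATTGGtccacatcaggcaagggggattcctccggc
Hsp90b1 (chr10:86705503-86705581, minus strand): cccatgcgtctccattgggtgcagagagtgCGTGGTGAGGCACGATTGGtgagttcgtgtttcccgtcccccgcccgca
Dnajc3 (chr14:118937797-118937875, plus strand): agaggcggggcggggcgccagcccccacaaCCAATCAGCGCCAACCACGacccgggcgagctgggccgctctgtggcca
Canx (chr11:50325770-50325848, minus strand): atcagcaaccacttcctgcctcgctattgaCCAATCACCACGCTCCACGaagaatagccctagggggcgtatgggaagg
Syvn1 (chr19:6046502-6046575, plus strand): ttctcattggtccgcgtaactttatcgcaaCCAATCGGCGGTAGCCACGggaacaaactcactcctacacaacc
Herpud1 (chr8:94386347-94386417, plus strand): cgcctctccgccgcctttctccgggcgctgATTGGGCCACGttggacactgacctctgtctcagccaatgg

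The element lay at -98 to -80 relative to the start site in Pdia6, at -65 to -47 in Hspa5, at -126 to -108 in Creld2 and at -52 to -42 in Herpud1. Hsp90b1 held ERSE at a second place further upstream, at -212 to -194, beside the one printed, at -107 to -89. Canx is printed because, as the values below show, a promoter with the element did not always go with higher treated arrays, and Syvn1 because its groups were apart by only 0.01. Other motifs of the same factors were also searched. The core TGACGTGG, bound by ATF6 and XBP1, was in 6 of the 69 ER genes (8.70%) and in 0.603% of all genes with a promoter. The composite element of ATF4, TGATGNAAN, was in 3 of 69 (4.35%) and in 3.89% of all, and the NFAT core GGAAAA was in 14 of 69 (20.3%) and in 22.9% of all. These matches describe letters in a window and were not tested as binding sites.

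One day into treatment, 1 of the 21789 probe sets passed the test. In the limma fit over all 24 arrays with Benjamini-Hochberg adjustment at 0.05, that was 0.00459% higher in treated embryoid bodies, and 0 probe sets (0%) were lower. At an unadjusted p under 0.05, 974 probe sets (4.47%) were higher and 252 (1.16%) lower. The lowest treated array exceeded the highest untreated array for 1719 probe sets (7.89%), here called separated groups, and the reverse held for 568 (2.61%). The difference was above 0 for 13758 probe sets (63.1%), with a median of 0.03, and without treated replicate 1 that median was 0.00. These shares are the background against which the counts of the gene lists stand.

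The gene that passed was Usp11, an X-linked gene for a deubiquitinating enzyme, which removes ubiquitin from target proteins. Its probe set, 10598933, read 9.85, 9.94 and 9.78 in treated arrays, against 9.17, 9.35 and 9.32 in untreated arrays. Every treated array was above every untreated one, with a gap of 0.43 between the lowest treated and the highest untreated value. Usp11 rose by 0.57 (SE 0.08), a 1.49-fold higher signal, with an adjusted p of 0.0106 by limma. The call was lost without treated replicate 1, treated replicate 2, untreated replicate 1 or untreated replicate 3, with adjusted p of 0.0823, 0.189, 0.0954 and 0.0539, while the difference stayed between 0.52 and 0.61. It was also lost after quantile normalization and after median centring, with adjusted p of 0.0599 and 0.0533 by limma. Of 13 deubiquitinating enzymes listed, Usp11 was the 1 that passed: Usp4 and Usp15, its nearest relatives, differed by 0.02 and 0.03 (SE 0.08 and 0.07), and the list's median difference was 0.02.

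**Figure D1:**
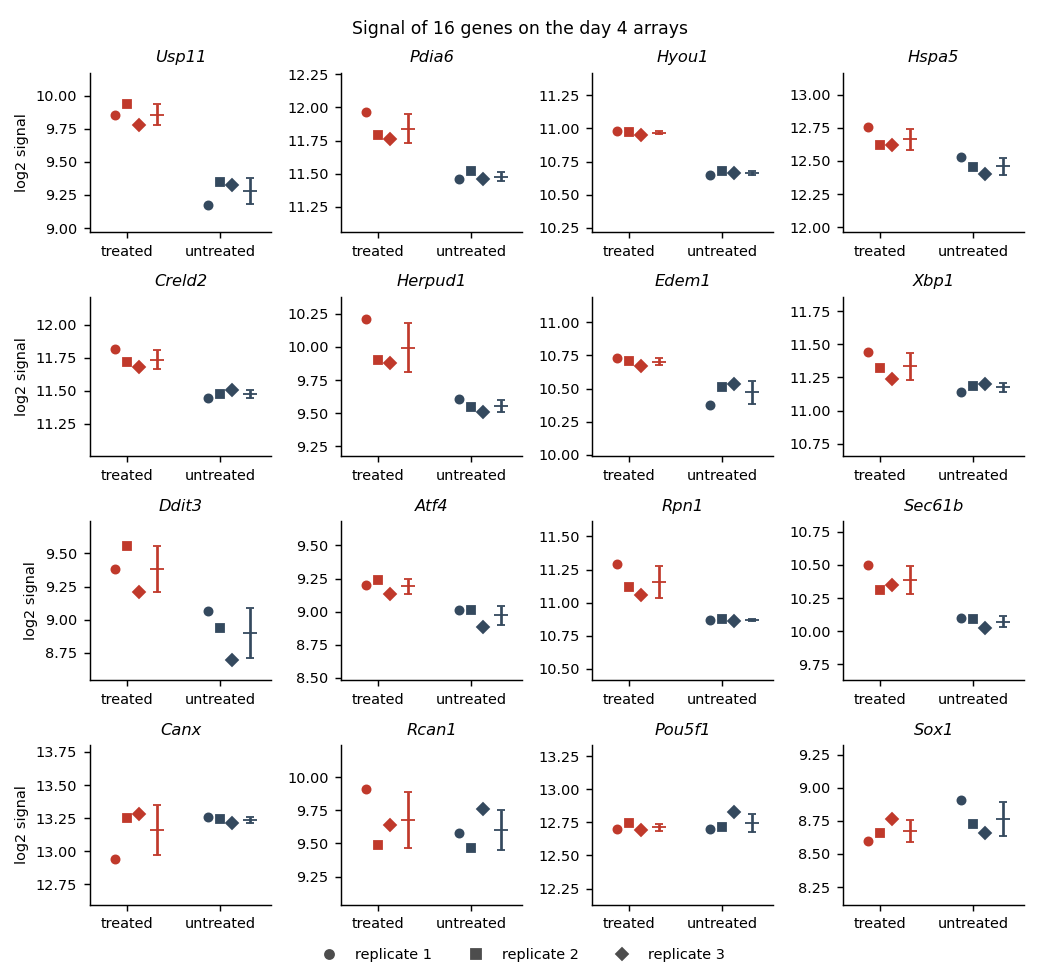
Values of 16 genes on the 6 day 4 arrays, as log2 signal, with treated arrays left and untreated arrays right in each panel. Marker shape gives the replicate number, the bar is the mean and the whisker 1 SD (n = 3 each), and every vertical axis spans 1.2 log2 units. Usp11 and the ER genes Pdia6, Hyou1, Hspa5, Creld2, Herpud1, Edem1, Rpn1 and Sec61b have all 3 treated arrays above the untreated ones, while Canx, Rcan1, Pou5f1 and Sox1 overlap.

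ER chaperones and folding enzymes, which bind nascent secretory proteins and form or rearrange their disulfide bonds, had the highest median difference of the 33 lists examined. No member passed the test. Of 25 members, all measured, 23 had a difference above 0 and 18 had every treated array above every untreated one, against 7.89% of all probe sets; 0 had every treated array below. Their median difference was 0.17, against 0.03 over all probe sets, and it was 0.19 without treated replicate 1, when the difference was above 0 in 25 of 25. By array, the list's median signal relative to the untreated mean was 0.22, 0.19 and 0.18 in treated arrays and -0.02, 0.02 and -0.02 in untreated arrays. Each of the treated arrays thus lay above each untreated one in this median. These values are not corrected for the shift of treated replicate 1, which lay at 0.10 over all probe sets. With array medians set equal, 15 members had separated groups above and 0 below, against 6.07% and 3.91% of all probe sets.

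Pdia6, a protein disulfide isomerase and one of the ERSE promoters printed above, came nearest to the threshold. It read 11.96, 11.79 and 11.76 in treated arrays and 11.46, 11.52 and 11.46 in untreated arrays, a difference of 0.36 (SE 0.06) with an adjusted p of 0.0652 by limma. Hyou1, an Hsp70-type chaperone of the ER, read 10.98, 10.97 and 10.95 in treated arrays against 10.65, 10.68 and 10.66 in untreated arrays. Both groups were tight, and the difference was 0.31 (SE 0.06, adjusted p = 0.191 by limma). Dnajc10, a disulfide reductase of the ER with a J domain, read 10.25, 10.27 and 10.25 in treated and 9.88, 10.03 and 10.01 in untreated arrays, a difference of 0.28. Pdia5, another disulfide isomerase, had the largest difference of the list, 0.42 (SE 0.12), from 9.80, 9.60 and 9.61 in treated arrays and 9.25, 9.31 and 9.19 in untreated arrays. Adjusted p was 0.313 for Dnajc10 and 0.636 for Pdia5 by limma.

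The abundant chaperones differed by less. Hspa5 (BiP), the main Hsp70 of the ER lumen, read 12.76, 12.62 and 12.62 in treated arrays against 12.53, 12.45 and 12.40 in untreated arrays, a difference of 0.20 (SE 0.07, adjusted p = 0.867 by limma). Hsp90b1, its Hsp90 counterpart, read 12.61, 12.69 and 12.68 in treated and 12.47, 12.55 and 12.51 in untreated arrays. In both genes the groups were separated, by 0.09 in Hspa5 and by 0.07 in Hsp90b1. Creld2, a secreted ER stress marker, read 11.81, 11.72 and 11.68 in treated arrays against 11.44, 11.48 and 11.51 in untreated arrays, a difference of 0.26. Sdf2l1, which works with BiP, had a difference of 0.33, Txndc11 0.39, Txndc5 0.35 (0.22 without treated replicate 1), Dnajc3 0.27, P4hb 0.20, Manf 0.19, Pdia4 and Erp44 0.16, and Calr 0.11, each with separated groups. At the other end were the lectin chaperone gene Canx and its partner Pdia3. Canx read 12.94, 13.25 and 13.28 in treated arrays and 13.26, 13.24 and 13.21 in untreated arrays, where treated replicate 1 was the low one, so that the difference of -0.08 was 0.03 without it. Pdia3 behaved likewise, at -0.04 with that array and 0.04 without it. Ero1b, like Canx a holder of ERSE, had overlapping groups as well (adjusted p = 0.989 by limma).

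Genes of ER-associated degradation, which carry misfolded proteins back to the cytosol for the proteasome, were next. No gene of this list passed the test. Of 17 measured members of 18, 13 had a difference above 0, against 63.1% of all probe sets. Groups were separated with the treated arrays above in 7 members, against 7.89% of all probe sets, and below in 0. Without the arrays numbered 1, 7 members were separated above and 3 below, against 21.1% and 17.4% of all probe sets. The list's median was 0.13, and it was 0.08 without the arrays numbered 1. Herpud1, an ER membrane protein of the degradation complex and the ERSE-II promoter printed above, read 10.21, 9.90 and 9.88 in treated arrays against 9.60, 9.55 and 9.51 in untreated arrays. Treated replicate 1 was the highest, and the other treated arrays still lay at least 0.28 above the untreated ones. The difference was 0.44 (SE 0.09), a 1.36-fold higher signal, with an adjusted p of 0.151 by limma.

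Edem1, which hands misfolded glycoproteins to the degradation machinery, read 10.73, 10.71 and 10.67 in treated arrays and 10.37, 10.51 and 10.54 in untreated arrays, a difference of 0.23 (SE 0.06, adjusted p = 0.534 by limma). Derl1 and Derl3, both channel components, had differences of 0.21 (0.12 without treated replicate 1) and 0.37, and Selenos, a partner of the derlins, 0.23. Derl3 read 10.69, 10.67 and 10.73 in treated arrays against 10.16, 10.38 and 10.43 in untreated arrays. Syvn1, the ubiquitin ligase at the centre of the complex and a holder of ERSE, depended on a single array. It read 9.98, 9.57 and 9.62 in treated arrays and 9.56, 9.45 and 9.52 in untreated arrays, and its difference of 0.22 was 0.09 without treated replicate 1. Members that act in the cytosol lay near 0, with 0.03 for Vcp, the ATPase that extracts substrates, 0.05 for Ufd1 and -0.03 for Nploc4. The ER members Os9, Rnf5 and Ube2j1 had overlapping groups too, with adjusted p of 0.977, 0.964 and 0.992 by limma. No split by place in the cell is therefore read from this list.

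Sensors and transcription factors of the unfolded protein response had differences above 0 in 11 of 11 measured members, of which 4 had separated groups, and none passed the test. Over all probe sets 63.1% had a difference above 0 and 7.89% were separated above. The list's median was 0.12, but 0.04 without the arrays numbered 1. Ddit3 (CHOP), a factor induced by ATF4, had the largest difference, 0.48 (SE 0.17, adjusted p = 0.867 by limma). It read 9.38, 9.55 and 9.21 in treated arrays against 9.07, 8.94 and 8.70 in untreated arrays, where replicate 3 was the lowest in both groups. Atf4 itself read 9.20, 9.24 and 9.13 in treated arrays and 9.01, 9.02 and 8.89 in untreated arrays, a difference of 0.22 (SE 0.08). Xbp1 read 11.44, 11.32 and 11.24 in treated arrays and 11.14, 11.18 and 11.20 in untreated arrays, separated by 0.04. An array of this kind reads total Xbp1 signal and does not give the splicing by which Ern1 activates it. The sensors differed by 0.16 for Atf6, 0.12 for Eif2ak3 and 0.07 for Ern1, all with overlapping groups. Without the arrays numbered 1 these 3 differences were 0.07, 0.04 and -0.04, and that of Xbp1 was 0.09.

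Targets of ATF4 in the integrated stress response, which serve amino acid supply, had a difference above 0 in 19 of 21 measured members and separated groups in 9, with a median of 0.12. The shares over all probe sets were 63.1% and 7.89%. With array medians set equal, 5 members had separated groups above and 1 below, against 6.07% and 3.91% of all probe sets. No member of the list passed the test. Chac1, a glutathione-degrading enzyme, read 9.46, 9.58 and 9.39 in treated arrays and 9.09, 9.07 and 9.12 in untreated arrays, a difference of 0.38 (SE 0.16). Mthfd2, of mitochondrial folate metabolism, had a difference of 0.29, and Asns, asparagine synthetase, read 12.68, 12.69 and 12.69 in treated arrays against 12.55, 12.53 and 12.55 in untreated arrays. Asns was thus separated but by a difference of only 0.14. Trib3, a pseudokinase of this response, read 8.88, 8.45 and 8.51 in treated arrays and 8.43, 8.44 and 8.43 in untreated arrays, and its difference of 0.18 was 0.05 without treated replicate 1. Without that array the list's median was 0.09.

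The apparatus that brings proteins into the ER and carries them on had differences above 0 in nearly every member, again without a call. Of 32 measured members of 34, 31 had a difference above 0 and 17 had separated groups, with a median of 0.15 and 0.11 without treated replicate 1. The shares over all probe sets were 63.1% above 0 and 7.89% separated above. With the median of every array set to the same value, 11 members had separated groups, against 6.07% of all probe sets. Rpn1, a subunit of the oligosaccharyltransferase that adds N-glycans, read 11.30, 11.12 and 11.06 in treated arrays against 10.87, 10.88 and 10.86 in untreated arrays, a difference of 0.29 (SE 0.06, adjusted p = 0.213 by limma). The translocon genes were alike: Sec61b read 10.50, 10.31 and 10.35 in treated and 10.10, 10.09 and 10.02 in untreated arrays, and Sec61a1 read 12.89, 12.74 and 12.77 in treated and 12.61, 12.57 and 12.62 in untreated arrays. Ssr3, of the translocon-associated complex, differed by 0.23 (0.14 without the arrays numbered 1), and Ostc, of the oligosaccharyltransferase, by 0.21. Kdelr3, a retrieval receptor for ER proteins, had the largest difference of the list, 0.40 (SE 0.17), with overlapping groups, and 0.26 without the arrays numbered 1. The one difference below 0 was that of Srpr, -0.04, a receptor subunit for the signal recognition particle.

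Together the chaperone, degradation, sensor and translocation lists hold 85 measured genes, of which 84 lie above the 40th percentile of mean signal. Separated groups with the treated arrays above were seen in 46 of them (54.1%), against 10.3% of all probe sets above that percentile, and separated groups the other way in 0, against 2.59%. At an unadjusted p under 0.05 there were 41. The difference was above 0 in 78, with a median of 0.15, and that median was 0.12 both without treated replicate 1 and with array medians set equal. By array the 85 genes lay a median of 0.20, 0.12 and 0.12 above the untreated mean in treated arrays and -0.03, 0.01 and 0.01 from it in untreated arrays. These genes are short of the threshold singly, and the lists were chosen with earlier results of these data known, so the counts are a description and not a test of the group.

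**Figure D2:**
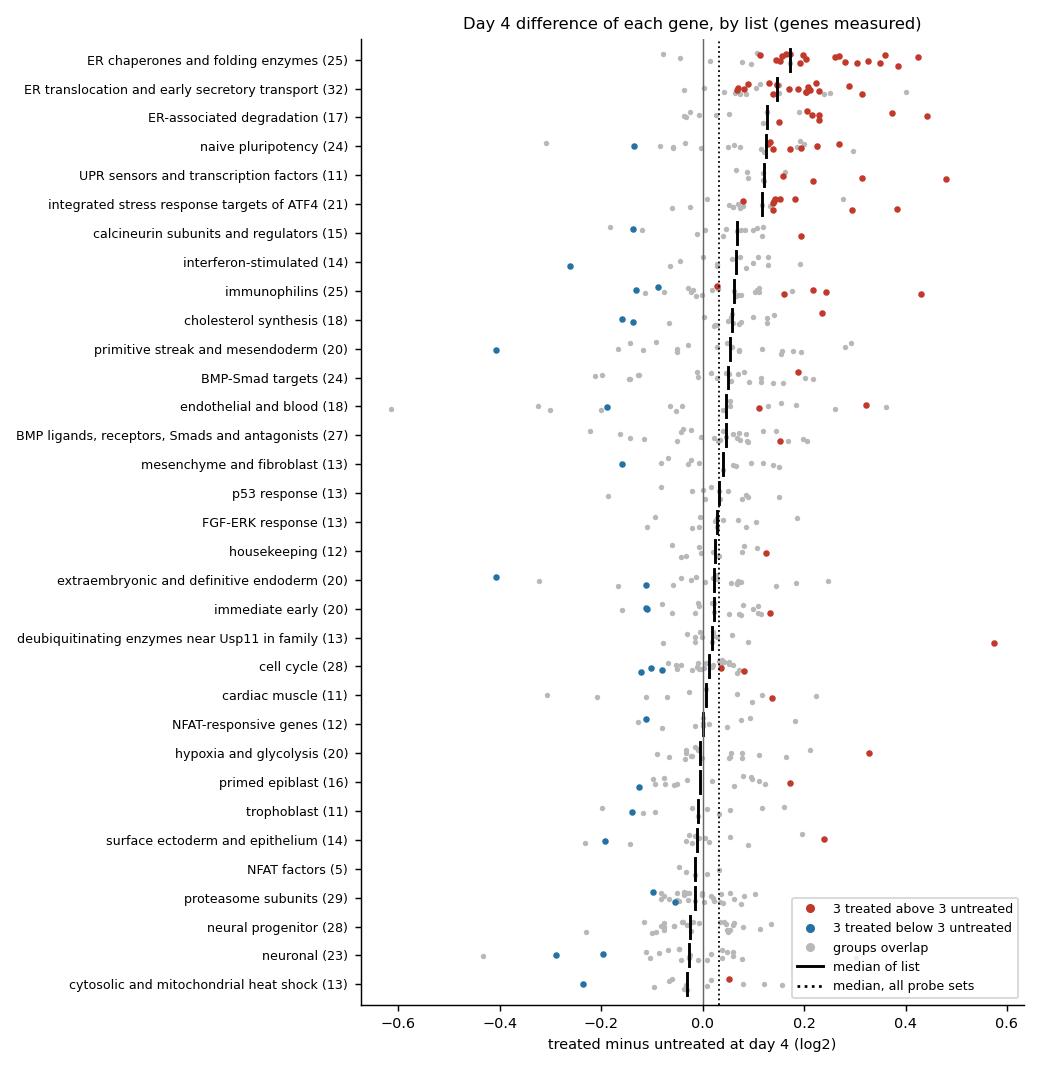
Treated minus untreated difference at day 4 (log2, horizontal axis) for every measured member of 33 gene lists, sorted by list median. Red points have all 3 treated arrays above the 3 untreated ones, blue points have them below and grey points overlap; the black bar is the list median and the dotted line the median over all probe sets, 0.03. The chaperone, translocation and degradation lists are at the top with medians of 0.17, 0.15 and 0.13.

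**Figure D3:**
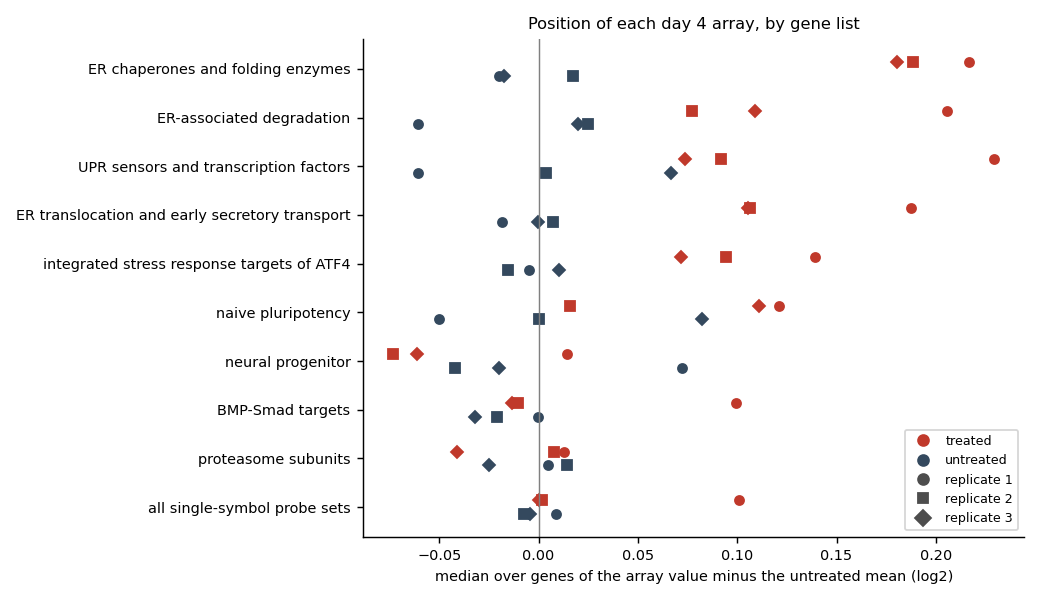
Median over the genes of each set of the value on an array minus the gene's untreated mean (log2), for 10 sets, with the treated arrays drawn above the untreated ones in each set. The 3 treated arrays sit at 0.18 to 0.22 for the chaperones, whereas over all probe sets treated replicate 1 sits at 0.10 and the other arrays near 0.

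Several genes outside the ER lists were also among the probe sets with the smallest p that had separated groups. Snd1, a nuclease-like RNA-binding protein and coactivator, read 11.39, 11.25 and 11.23 in treated arrays against 10.85, 10.90 and 10.98 in untreated arrays. Its difference was 0.38 (SE 0.07, adjusted p = 0.0652 by limma). Rhbdd1, a rhomboid protease of the ER membrane, read 9.27, 9.15 and 9.08 in treated arrays and 8.77, 8.68 and 8.78 in untreated arrays, a difference of 0.42 with an adjusted p of 0.0817 by limma. Aldh18a1, which makes the precursor of proline, read 10.62, 10.48 and 10.48 in treated arrays and 10.16, 10.15 and 10.22 in untreated arrays. Pgm1, a phosphoglucomutase, read 10.63, 10.67 and 10.62 in treated arrays and 10.30, 10.35 and 10.34 in untreated arrays. These 2 genes had adjusted p of 0.0817 and 0.0944 by limma, and in both the groups were at least 0.26 apart. Usp11, Pdia6, Snd1, Rhbdd1, Aldh18a1 and Pgm1 were the 6 probe sets under a threshold of 0.1, and the same 6 passed 0.05 when the test was limited to probe sets above the 40th percentile of mean signal.

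The next members of that ranking, all short of the threshold, were Mydgf, a secreted growth factor that read 9.02, 8.67 and 8.58 in treated and 8.16, 8.12 and 8.43 in untreated arrays, and Tspyl2, a nucleosome assembly protein with a difference of 0.35. The difference of Mydgf, 0.52, was 0.34 without the arrays numbered 1, and that of Uckl1, a uridine kinase homologue, was 0.41, or 0.23 without them. The amino acid transporter gene Slc38a7 differed by 0.32, the small membrane protein gene Smim14 by 0.36 and Uap1, which makes the sugar donor of N-glycans, by 0.31. Uap1 read 9.85, 9.93 and 9.87 in treated arrays against 9.55, 9.61 and 9.57 in untreated arrays, a gap of 0.24 between groups. Of the 15 leading probe sets on the higher side, 4 belong to the ER lists and 15 lie above the 40th percentile of mean signal.

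On the lower side the leading probe sets were weaker and mostly dim, with 5 of 15 above that percentile, and none passed the test. Adh4, an alcohol dehydrogenase gene, had the smallest p there: it read 5.88, 5.92 and 5.87 in treated arrays against 6.25, 6.34 and 6.23 in untreated arrays, a difference of -0.38 (adjusted p = 0.219 by limma) at the very bottom of the signal range. The table holds no detection calls, so such a value was not shown to lie above background. Lce3a, a cornified envelope gene, had a difference of -0.47, or -0.29 without treated replicate 1, and Rep15, a Rab effector that read 7.20 to 7.25 in treated and 7.39 to 7.69 in untreated arrays, one of -0.35. Among brighter genes, Med29, a subunit of the Mediator complex, read 9.72, 9.93 and 9.94 in treated arrays and 10.18, 10.21 and 10.15 in untreated arrays, a difference of -0.32 (adjusted p = 0.636 by limma). Lmx1b, a LIM homeobox factor of the developing brain and limb, read 8.27, 8.36 and 8.40 in treated arrays and 8.65, 8.60 and 8.51 in untreated arrays. Peg12, an imprinted gene, read 8.13, 8.15 and 8.22 in treated arrays and 8.52, 8.37 and 8.39 in untreated arrays. Nexmif, an X-linked neurite extension factor, had the largest of these differences, -0.54, and the other 8, from Barx2 to Muc3, lay between -0.31 and -0.23.

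The proteins the drugs act on were present at the RNA level, and none of their genes passed the test. Fkbp1a, which encodes the FK506-binding partner, read 11.69, 11.85 and 11.82 in treated arrays and 11.84, 11.81 and 11.93 in untreated arrays. Ppia, which encodes the cyclosporin-binding partner, read 13.38, 13.49 and 13.48 in treated arrays against 13.52, 13.57 and 13.53 in untreated arrays, separated but by a difference of only -0.09. The calcineurin catalytic subunits Ppp3ca and Ppp3cb differed by 0.00 and -0.01 (SE 0.08 each), and the third, Ppp3cc, by 0.19. The regulatory subunit gene Ppp3r1 differed by -0.18 (SE 0.08, adjusted p = 0.867 by limma) with overlapping groups, or by -0.07 without treated replicate 1. Rcan1, a calcineurin regulator that NFAT is known to induce and a usual readout of the pathway, read 9.91, 9.49 and 9.64 in treated arrays and 9.58, 9.46 and 9.76 in untreated arrays. The groups overlapped, and its difference was 0.08 (SE 0.10), or -0.04 without treated replicate 1. Over 15 measured calcineurin subunits and regulators the median was 0.07, or 0.03 without treated replicate 1, with 1 member separated each way.

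NFAT factors themselves lay between -0.05 and 0.03, with Nfatc3 the brightest at 11.21, 11.13 and 11.18 in treated arrays and 11.01, 11.16 and 11.25 in untreated arrays. NFAT-responsive genes known from lymphocytes and other cells had a median of 0.00 over 12 members, with 0 separated above and 1 below. The one below was Egr3, with a difference of -0.11 (SE 0.07, adjusted p = 0.868 by limma). Of the 12, 4 lay above the 40th percentile of signal. Immunophilins had a median of 0.06 over 25 measured members, or 0.02 without treated replicate 1. Of these members 5 were separated above and 2 below, against 7.89% and 2.61% of all probe sets. The largest difference among the immunophilins was that of Fkbp11, an ER-resident member, which read 9.10, 8.75 and 8.58 in treated arrays against 8.39, 8.37 and 8.39 in untreated arrays. Its difference was 0.43 (SE 0.12, adjusted p = 0.692 by limma), and 0.28 without treated replicate 1.

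Other stress and growth programs had medians near that of all probe sets. No direction is read from such medians, several of which changed sign when 1 array was left out or the arrays were centred. Heat shock genes of the cytosol and mitochondria had a median of -0.03 over 13 measured members, with 1 separated above and 1 below. Dnaja1, the one below, read 11.16, 11.69 and 11.68 in treated arrays against 11.75, 11.77 and 11.72 in untreated arrays, so that its difference of -0.24 was -0.06 without treated replicate 1. Proteasome subunits, 29 of 29 measured, had a median of -0.02 with 0 separated above and 2 below. The p53 response had a median of 0.03 with 0 of 13 separated, and immediate early genes 0.02 with 1 of 20 above and 2 below. Hypoxia and glycolysis genes had a median of 0.00 over 20, and 1 of them, Vegfa, an angiogenic factor that the unfolded protein response is also known to induce, was separated. Vegfa read 9.99, 9.82 and 9.79 in treated arrays and 9.35, 9.55 and 9.72 in untreated arrays, a difference of 0.33, or 0.17 without the arrays numbered 1. Cholesterol synthesis genes had a median of 0.06 over 18, cell cycle genes 0.01 over 28, interferon-stimulated genes 0.07 over 14 and housekeeping genes 0.03 over 12, with 1, 2, 0 and 1 members separated above and 2, 3, 1 and 0 below.

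Genes of neural induction and of BMP signalling, the subject of the study, had few members with separated groups at day 4. Over 28 measured neural progenitor genes the median was -0.02, with 0 separated above and 0 below. Sox1, whose locus carries the reporter of the line, read 8.60, 8.66 and 8.77 in treated arrays and 8.91, 8.72 and 8.66 in untreated arrays. Over 23 neuronal genes the median was -0.03 with 2 separated below. Among 24 BMP-Smad targets 1 was separated above and 0 below, with a median of 0.05 that was 0.00 without treated replicate 1. Id1, a direct target of BMP-activated Smads, read 9.61, 9.26 and 9.22 in treated arrays against 9.28, 9.09 and 9.25 in untreated arrays, and its difference of 0.16 was 0.04 without treated replicate 1. Msx2, another such target, read 7.67, 7.37 and 7.56 in treated and 7.83, 7.14 and 7.36 in untreated arrays. The separated member was Smad7, an inhibitory Smad, with a difference of 0.19. BMP ligands, receptors, Smads and antagonists had a median of 0.05 over 27, again 0.00 without that array, with Bmp4, a main ligand, at 0.07 (SE 0.16), and FGF-ERK response genes 0.03 over 13 with 0 separated.

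Naive pluripotency genes were the list outside the ER and stress groups with the most members separated above, 7 of 24, beside 1 below, Dppa2. The shares over all probe sets were 7.89% above and 2.61% below. With array medians set equal the counts of the list were 3 and 0, against 6.07% and 3.91% of all probe sets. The list's median of 0.13 was 0.05 without treated replicate 1. Klf4, one of the factors that reprogram somatic cells, averaged 8.98 ± 0.03 in treated arrays and 8.78 ± 0.09 in untreated arrays (SD, n = 3 each), a difference of 0.19 (adjusted p = 0.867 by limma) that was the same without that array. Primed epiblast genes had a median of -0.01 over 16. For the other cell types, the medians were 0.05 over 20 primitive streak genes, 0.02 over 20 endoderm genes, 0.05 over 18 endothelial and blood genes, 0.01 over 11 cardiac genes, 0.04 over 13 mesenchyme genes, -0.01 over 11 trophoblast genes and -0.01 over 14 surface ectoderm genes. Without treated replicate 1 the medians for streak, endoderm, cardiac and mesenchyme genes were -0.01, -0.04, -0.02 and -0.07. At most 2 members of any of these lists were separated in a direction. Foxa2, a factor of endoderm and the node, read 7.38, 7.41 and 7.60 in treated arrays against 8.07, 7.79 and 7.76 in untreated arrays, a difference of -0.41 (SE 0.18, adjusted p = 0.867 by limma), or -0.27 without the arrays numbered 1. Etv2, which starts the endothelial and blood program, was uneven between replicates, with 8.68, 8.33 and 8.18 in treated arrays and 8.37, 9.32 and 9.34 in untreated arrays. Its difference of -0.61 was -1.08 without the arrays numbered 1, since the untreated array so numbered was the low one of its group.

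The ER genes were followed into the later days, whose arrays are not those of day 4. At day 6, 265 probe sets were called higher (1.22%) and 116 lower (0.532%) by limma, at day 8 there were 1014 (4.65%) and 843 (3.87%), and at day 12, 4 days after the drugs were withdrawn, 1543 (7.08%) and 2199 (10.1%). Of the 85 ER genes, 6 were called higher at day 6, 27 at day 8 and 9 at day 12, with 0, 0 and 2 called lower. Their median difference was 0.15 at day 4, 0.12 at day 6, 0.17 at day 8 and 0.06 at day 12. Over all probe sets the medians at days 6, 8 and 12 were 0.01, -0.04 and 0.01, and the share with a difference above 0 was 51.9%, 37.6% and 52.8%, beside 75, 74 and 63 of the 85 ER genes.

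Pdia6 differed by 0.36 at day 4, 0.26 at day 6 (adjusted p = 0.0281 by limma), 0.26 at day 8 (adjusted p = 0.0102) and 0.03 at day 12. Edem1 differed by 0.23 at day 4, 0.27 at day 6 (adjusted p = 0.0160 by limma), 0.26 at day 8 (adjusted p = 0.0101) and 0.09 at day 12. In both genes the difference was thus between 0.23 and 0.36 while the drugs were present and under 0.1 afterwards. Dnajc10 was also called at days 6 and 8, with 0.28 and 0.25 after 0.28 at day 4. Herpud1, Hyou1 and Rpn1, the other ER genes among the 15 leading higher probe sets, were called on no day. Herpud1 differed by 0.44, 0.27, 0.19 and 0.05 at days 4, 6, 8 and 12. In the same order Hyou1 differed by 0.31, 0.17, 0.12 and -0.15, and Rpn1 by 0.29, 0.19, 0.16 and -0.01. Hspa5 was called at day 8, at 0.28 (adjusted p = 0.0191 by limma), and Xbp1 at 0.32 (adjusted p = 0.00857 by limma). Sdf2l1 differed by -0.34 at day 12 and fell there (adjusted p = 0.0214 by limma), after 0.33 at day 4. Targets of ATF4 had medians of 0.12 at day 4, 0.07 at day 6, -0.12 at day 8 and -0.15 at day 12, so this median turned below 0, beside 0.17, 0.13, 0.21 and 0.04 for the chaperones.

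**Figure D4:**
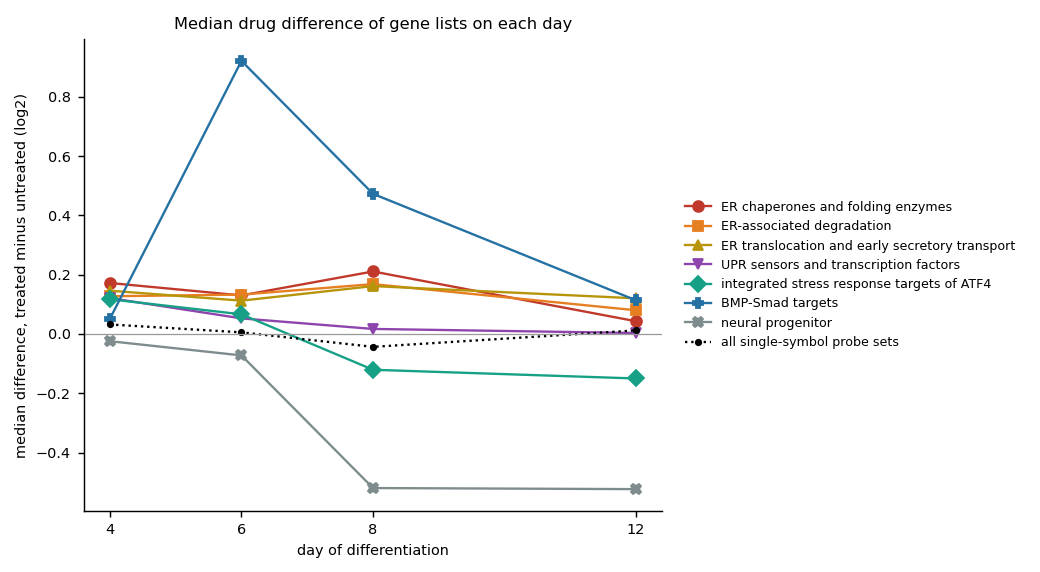
Median treated minus untreated difference (log2) at days 4, 6, 8 and 12 for 8 sets of genes. The chaperone line runs at 0.17, 0.13, 0.21 and 0.04, the ATF4 targets cross 0 between days 6 and 8, and the BMP-Smad targets are at 0.05 on day 4 and 0.92 on day 6.

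Usp11 did not keep its difference: it was 0.57 at day 4, 0.14 at day 6, 0.10 at day 8 and -0.10 at day 12, and passed the test at day 4 alone of the 4 days. The difference between its day 4 and its day 6 effect was not among those called below. Of the 15 leading higher probe sets, 13 had a difference above 0 at day 6 and 13 at day 8, where 2 and 3 were called higher by limma, and 6 at day 12. Tspyl2 was called at day 8 at 0.39 (adjusted p = 0.00330 by limma), and Smim14 at days 8 and 12 at 0.29 and 0.24. Of the 15 leading lower probe sets, 6 had the same sign at day 6, 10 at day 8 and 4 at day 12. For comparison, 51.9%, 37.6% and 52.8% of all probe sets had a difference above 0 at days 6, 8 and 12. Most probe sets were thus not above 0 at day 8. Lmx1b differed by -0.25, -0.25, -0.32 and -0.36 at days 4, 6, 8 and 12, and fell at days 8 and 12 by limma (adjusted p = 0.00888 and 0.00106). Across all 21789 probe sets the day 4 difference had a Pearson correlation of 0.0816 with the day 6 difference, 0.0891 with that of day 8 and -0.0182 with that of day 12. Over the 85 ER genes these were 0.396, 0.369 and 0.203. No array is shared between days, but probe sets share the arrays of their own day and are not independent.

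The effect of the drugs at day 4 was tested against their effect at day 6, the difference of the 2 differences, in the same fit. By limma with Benjamini-Hochberg adjustment it was higher at day 4 for 6 probe sets (0.0275%) and lower for 22 (0.101%). None of the 85 ER genes was among them, and 3 BMP-Smad targets were lower at day 4. Foxf1, a forkhead factor of lateral mesoderm, read by a pair of probe sets, had effects of 0.06 and 0.28 at day 4 against 2.69 and 3.53 at day 6. Msx2 had 0.09 at day 4 against 2.12 at day 6, and Bmp4 0.07 against 1.20, with an adjusted p of 0.0368 for the difference in Bmp4. Pgm1 went the other way, with 0.31 at day 4 and -0.17 at day 6, a difference of 0.48 (adjusted p = 0.0176). Peg12 had -0.26 at day 4 and 0.27 at day 6, a difference of -0.53 (adjusted p = 0.0475).

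Set against day 8, the day 4 effect was higher for 10 probe sets (0.0459%) and lower for 9 (0.0413%), and again none was an ER gene. Rhbdd1 was among the higher, with 0.42 at day 4 and -0.13 at day 8, a difference of 0.56 (SE 0.11, adjusted p = 0.0457 by limma). Tbx4, a limb and allantois T-box factor, had the smallest p among the lower, with 0.03 at day 4 and 2.87 at day 8. Neural progenitor genes, with a median of -0.02 at day 4, had 17 of 28 called lower at day 8 and a median of -0.52 there. Mesenchyme genes had a median of 0.04 at day 4 and of 1.14 at day 8, where 8 of 13 were called higher. Over all probe sets 3.87% were called lower and 4.65% higher at day 8, with a median of -0.04.

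**Figure D5:**
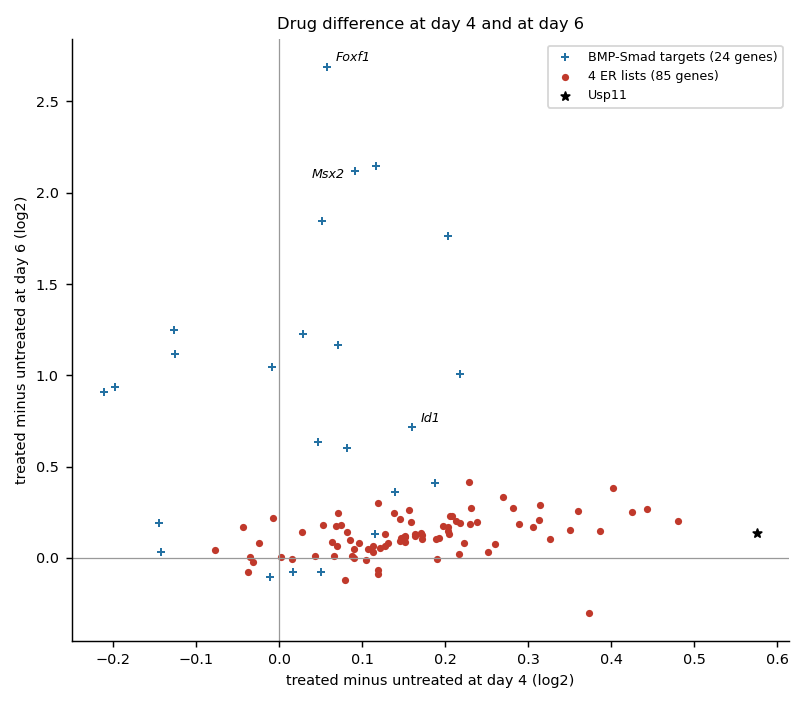
Treated minus untreated difference at day 4 (horizontal) against that at day 6 (vertical), both log2, for 85 ER genes, 24 BMP-Smad targets and Usp11, drawn as a star. The ER genes sit mostly right of and above 0, with medians of 0.15 at day 4 and 0.12 at day 6, while Foxf1, Msx2 and Id1, at 0.06, 0.09 and 0.16 on day 4, are at 2.69, 2.12 and 0.72 on day 6.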

How the data were processed

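Total RNA of whole embryoid bodies was measured on Affymetrix Mouse Gene ST 1.0 arrays, 8 groups of 3. The authors summarised probes by RMA in Affymetrix Expression Console into the log2 values as deposited, per the submitters' processing notes. The log2 scale itself was read from the range of the values. No version or library file is named. The table has 35556 probe sets and no detection calls. The platform annotation gave 21789 of them 1 symbol, 1621 several and left 12146 unlisted; 21698 of the 21789 matched the GRCm38.p6 gene table. A listed gene was represented by its probe set with the highest mean over the 24 arrays.

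Differences were fitted with limma 3.58.1 in R 4.3.3 (lmFit with 1 mean per group, 16 residual degrees of freedom, eBayes, Benjamini-Hochberg over all 21789 probe sets, called under 0.05). The 3 replicates are labelled as independent experiments. The members and the 33 lists (584 measured genes, 34 listed genes not measured) were chosen with earlier results of these data known, so lists are described by counts and medians beside all probe sets and were not tested. Named were every called probe set, the 15 of smallest p on each side with separated groups (clone names, small RNA genes, olfactory and vomeronasal receptors and predicted pseudogenes passed over), up to 4 of smallest p per list, the 6 of smallest p each way per difference of effects, and probe sets called in 4 or more alternative fits. The remaining ER list members, the drug targets and cell type markers, and some list members such as Sox1, Id1 and Bmp4, were also given, a choice made after their values were seen. Promoters came from RefSeq (250 bases before and 50 after each start). Python 3.11.15 was used with matplotlib 3.10.9, numpy 2.4.6 and pandas 2.3.3. The fit was checked on simulated data. Alternatives changed the features tested, a filter at the 40th percentile, the normalization, prior, array weights, replicate block, arrays and threshold.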

Additional observations from a re-analysis of the deposited data

Results flagged for a closer look

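The results below are those where the effect of the drugs at day 4 differed from that at a later day by the test of the difference itself (limma, Benjamini-Hochberg over all probe sets). Each value is the day 4 effect minus the later one, on the log2 scale. Groups of 3 arrays are too small for the rule on single outlying samples, which was not applied.

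Against day 6, the day 4 effect was higher in 5 named genes. Pgm1 was 0.48 higher (SE 0.08, adjusted p = 0.0176), from effects of 0.31 at day 4 and -0.17 at day 6. Castor2, a relative of the arginine sensor Castor1, was 0.76 higher, with 0.06 at day 4 and -0.70 at day 6, where it fell (adjusted p = 0.000412). Fcho1, an endocytosis factor, was 0.58 higher and Vsig10, an immunoglobulin-domain gene, 0.72 higher, with day 4 effects of 0.21 and 0.23 against -0.37 and -0.50 at day 6. Dhrs3, which reduces retinal, was 0.97 higher, with 0.28 at day 4 and -0.70 at day 6. The day 4 effect was not called in any of these 5 genes. The difference itself stayed called in 12 of 16 alternatives for Pgm1, 8 of 16 for Castor2, 6 of 16 for Fcho1, 5 of 15 for Vsig10 and 4 of 16 for Dhrs3.

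The 6 probe sets of smallest p that were lower at day 4 than at day 6 read 4 genes. Gjb2, a connexin, gave -1.26 (SE 0.15, adjusted p = 0.000917), with -0.03 at day 4 and 1.23 at day 6. Adamts3, a procollagen protease, gave -1.03 and -0.98 at its pair of probe sets, and Foxf1 -2.63 and -3.25 at its pair. Nin, a centrosome protein, gave -0.79, with -0.12 at day 4 and 0.67 at day 6. Gjb2, Nin, both probe sets of Foxf1 and 1 of those of Adamts3 stayed called in every alternative tried for them.

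Against day 8, higher at day 4 were Cntnap2 by 0.99, Igfbp2 by 0.97, Tal2 by 1.29, Arfgef3 by 0.66, Pappa by 1.15 and Spock2 by 1.01. Their day 4 effects lay between 0.03 and 0.30 and each was called lower at day 8. Lower at day 4 were Tbx4 by -2.84 (SE 0.34, adjusted p = 0.000717), Tfec by -1.86, Hoxd8 by -1.50, Dab2 by -1.42, Pitx1 by -1.50 and Daam2 by -1.23. Tbx4 and Pitx1 are factors of the hindlimb, and Hoxd8 is a posterior homeobox gene. Day 4 effects of these 6 lay between -0.06 and 0.16, and each was called higher at day 8. Of the 12, Tbx4 stayed called in every alternative tried, and the other 11 did not.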

How the results depend on the processing

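Usp11 kept its sign in the 17 alternatives tried and its call in 8 of them, with adjusted p between 0.00011 and 0.939. The count of probe sets higher at day 4, 1 with 0 lower and 1226 at an unadjusted p under 0.05, became 6 above the 40th percentile of mean signal, 5 with an intensity trend and robust prior and 6 at a threshold of 0.1. It was 0 after quantile normalization, 0 after median centring, 0 with a replicate block within day and 0 with day 4 arrays alone, and 0 to 1 with each day 4 array left out in turn. Without both replicate 1 arrays, a choice made after seeing the data, it was 0 and the lower count was 1, Exoc3l (-0.70, adjusted p = 0.0334). Array weights gave 89 higher and 41 lower, including 15 of the 15 leading higher and 14 of the 85 ER genes; treated replicate 1 had a weight of 0.243 and untreated replicate 2 one of 4.776, and the estimate had not converged. The cause of these changes was not tested.

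For the day 4 minus day 6 effect, 6 higher and 22 lower became 1 and 9 over every probe set of the table, 12 and 50 at 0.1, 2 and 13 with the trend prior, 312 and 334 with array weights, 45 and 133 with the replicate block, 0 and 8 over days 4 and 6 alone and 1 and 5 without both replicate 1 arrays. Quantile normalization gave 3 higher and median centring 35 lower, and leaving out single arrays gave 0 to 3 higher and 9 to 12 lower. For the day 4 minus day 8 effect, 10 higher and 9 lower became 58 and 44 with 1 probe set per gene, 0 and 2 over every probe set, 66 and 35 above the 40th percentile, 16 and 33 after quantile normalization, 19 and 65 after median centring, 2346 and 1458 with array weights, 632 and 511 with the replicate block, 0 and 1 without both replicate 1 arrays and 211 and 145 at 0.1. Leaving out single arrays gave 0 higher and 1 to 2 lower there.

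The chaperone median, 0.17, was 0.14 after median centring, 0.19 over all probe sets of its members and 0.16 to 0.20 with single arrays left out. The count of separated members of the sensor list was 4 to 9 with single arrays left out, 9 without untreated replicate 3. Over all probe sets the share separated above was then 9.72% to 16.5%, and 15.8% without untreated replicate 3, against 7.89% with every array. After median centring the count of the translocation list was 11, of the ATF4 targets 5 and of the naive pluripotency list 3. Centring moved the median of all probe sets from 0.03 to 0.00, and the separated probe sets from 1719 above and 568 below to 1323 (6.07%) and 851 (3.91%). Of 238 genes named or in the ER lists, 43 changed sign in some alternative. Same-numbered arrays of the treated and untreated groups had correlations of deviations of 0.033, 0.214 and -0.027. The highest between arrays of different numbers was 0.072. With 3 arrays a group these values cannot decide whether same-numbered arrays belong together, and the replicate block is an alternative above. Without detection calls the reliability of dim probe sets is unknown.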

Other observations

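Further members of the ER translocation and transport list lay on the same side as Rpn1. Surf4, a cargo receptor, differed by 0.22. Rpn2, a neighbour of Rpn1 in the enzyme, read 11.90, 11.69 and 11.67 in treated arrays and 11.56, 11.57 and 11.62 in untreated arrays, and Stt3a, the catalytic subunit of the oligosaccharyltransferase, differed by 0.15. Without the arrays numbered 1 the difference of Rpn2, 0.17, was 0.09. Srprb differed by 0.20 and Ssr4 by 0.21, or 0.13 without those arrays, with separated groups in each of these 5 genes and no call.

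Among endothelial genes the differences went both ways. Pecam1, an adhesion molecule, read 9.42, 9.24 and 9.11 in treated arrays against 8.81, 9.01 and 8.98 in untreated arrays, a difference of 0.32, or 0.18 without the arrays numbered 1, and Lmo2, a partner of the blood factor Tal1, differed by -0.32 with overlapping groups. Ifitm3, a membrane protein that interferon induces, read 11.76, 11.80 and 11.78 in treated arrays and 11.96, 12.06 and 12.11 in untreated arrays, a difference of -0.26. None of these passed the test (adjusted p = 0.867 each by limma).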
